A study of Homo sapiens with 6 samples.

Results

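The RNAs that code for the subunits of the oxidative phosphorylation complexes were compared between 2 lines of human hepatocellular carcinoma cells. Members were taken by a rule on gene symbols that does not use their values, though the set was chosen with earlier results known. The rule takes symbols that begin with NDUFA, NDUFB, NDUFC, NDUFS or NDUFV (the NDUFAF assembly factors excepted), UQCR, COX4 to COX8, ATP5, MT-ND, MT-CO, MT-CYB or MT-ATP, and SDHA, SDHB, SDHC and SDHD. This gave 103 members among 26184 genes and loci, of which 90 are nuclear genes and 13 lie on the mitochondrial genome. By complex, 45 belong to complex I, 4 to complex II, 10 to complex III, 22 to complex IV and 22 to complex V. NDUFA4 and NDUFA4L2 were placed in complex IV, where the NDUFA4 protein is found, in spite of their names.

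Huh7 P is the parental line, and Huh7 LR is a single line derived from it by growth in lenvatinib, an inhibitor of several receptor tyrosine kinases, raised from 1 to 20 μM over about 10 months, and was then kept in medium with 20 μM of the drug. RNA was sequenced from 3 independent samples of each line. No genetic change was introduced in either line. The sources used here do not state separately whether the drug was in the medium at the harvest for RNA. Since Huh7 LR is 1 derived line, resistance and any other difference between the lines cannot be told apart.

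Oxidative phosphorylation takes place in the inner mitochondrial membrane. Complexes I and II pass electrons from NADH and succinate to ubiquinone, complex III passes them on to cytochrome c, and complex IV hands them to oxygen. Complexes I, III and IV pump protons, whose return through complex V drives the making of ATP. Complex II is coded wholly in the nucleus, whereas the other complexes combine nuclear subunits, imported as proteins, with a few subunits made inside the mitochondrion from its own genome. Hepatocytes are rich in mitochondria and use this pathway to power synthesis and detoxification.

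The deposited counts of reads on genes totalled 71427573, 62738937 and 66961548 for Huh7 P and 63233655, 70768720 and 67284160 for Huh7 LR. CPM are counts scaled to a common library size. A count of 0 is compatible with at most 3 counts, 0.0418 to 0.0486 CPM depending on the library, if only counting error is allowed for. Values below are CPM scaled by edgeR's TMM factors unless FPKM, which is also divided by transcript length, is named. All log2 fold changes are Huh7 LR against Huh7 P, and calls, higher or lower, were made where the adjusted p was under 0.05. Of the members, 96 had enough counts to be tested among 17531 genes and loci, 83 of them nuclear and 13 mitochondrial.

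In edgeR's quasi-likelihood test, Benjamini-Hochberg adjusted over all genes and loci, 42 of the 96 members were lower in Huh7 LR, where 22.4% of all tested genes were lower. Only 5 members were higher, beside 23.3% of all tested genes. The remaining 49 were not called. The falls were moderate: the median log2 fold change was -0.22 over the nuclear members and -0.12 over the mitochondrial ones, and 0.00 over all genes and loci tested. In 47 members every Huh7 LR library lay below every Huh7 P library, against 27.7% of all tested genes, and in 9 every Huh7 LR library lay above, against 28.2%. Among the 5857 genes with a mean level of at least 10 FPKM, the range in which most members lie, 32.9% were lower and 21.1% higher, and the median was -0.07. Of these 5857 genes, 2242 had every Huh7 LR library below every Huh7 P library and 1449 had every one above. RNA from whole cultures cannot tell fewer cells with a transcript from less of it in each cell.

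None of the members passed the study's threshold of a change above 2-fold at p under 0.001, which 6.21% of all tested genes passed with the adjusted p of edgeR's quasi-likelihood test. The count was also 0 with DESeq2's Wald test and with limma-trend. At an unadjusted p under 0.05 with a change above 2-fold, 1 member was found, the read-through gene NDUFC2-KCTD14. Its counts were 13, 0 and 0 for Huh7 P against 57, 0 and 55 for Huh7 LR, so that the libraries of each line lay far apart and the lines overlapped. Its log2 fold change was 3.09 (SE 1.26, edgeR's quasi-likelihood test, Benjamini-Hochberg adjusted p = 0.0655), and it was called higher with the replicate number as a block, without Huh7 P replicate 1 and without Huh7 LR replicate 2. Of its exon bases 52.2% are shared with NDUFC2 and 47.8% with KCTD14, and summed with these genes, an alternative chosen after seeing the data, NDUFC2-KCTD14 stood at -0.09 and was not called.

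The share of all counts is given for each genome, without a test between them. Nuclear members took 1.10%, 1.12% and 1.07% of all counts for Huh7 P, against 0.916%, 0.963% and 0.942% for Huh7 LR. The Huh7 LR libraries all lay below the Huh7 P libraries. Mitochondrial members took 4.77%, 5.03% and 5.48% for Huh7 P, against 4.79%, 5.81% and 4.81% for Huh7 LR, and here the groups overlapped. Of the nuclear members tested, 40 of 83 (48.2%) were lower and 3 higher, and of the 13 mitochondrial members 2 were lower and 2 higher (15.4% each, beside 22.4% and 23.3% of all tested genes). The summed counts of the mitochondrial members were 4.34, 4.51 and 5.10 times those of the nuclear members for Huh7 P, against 5.23, 6.03 and 5.11 times for Huh7 LR, where the groups lay apart by a narrow gap. Per length, the summed FPKM of the mitochondrial members was 6.08, 6.27 and 7.07 times that of the nuclear members in Huh7 P and 6.84, 7.94 and 6.77 times in Huh7 LR, with the groups overlapping.

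**Figure D1:**
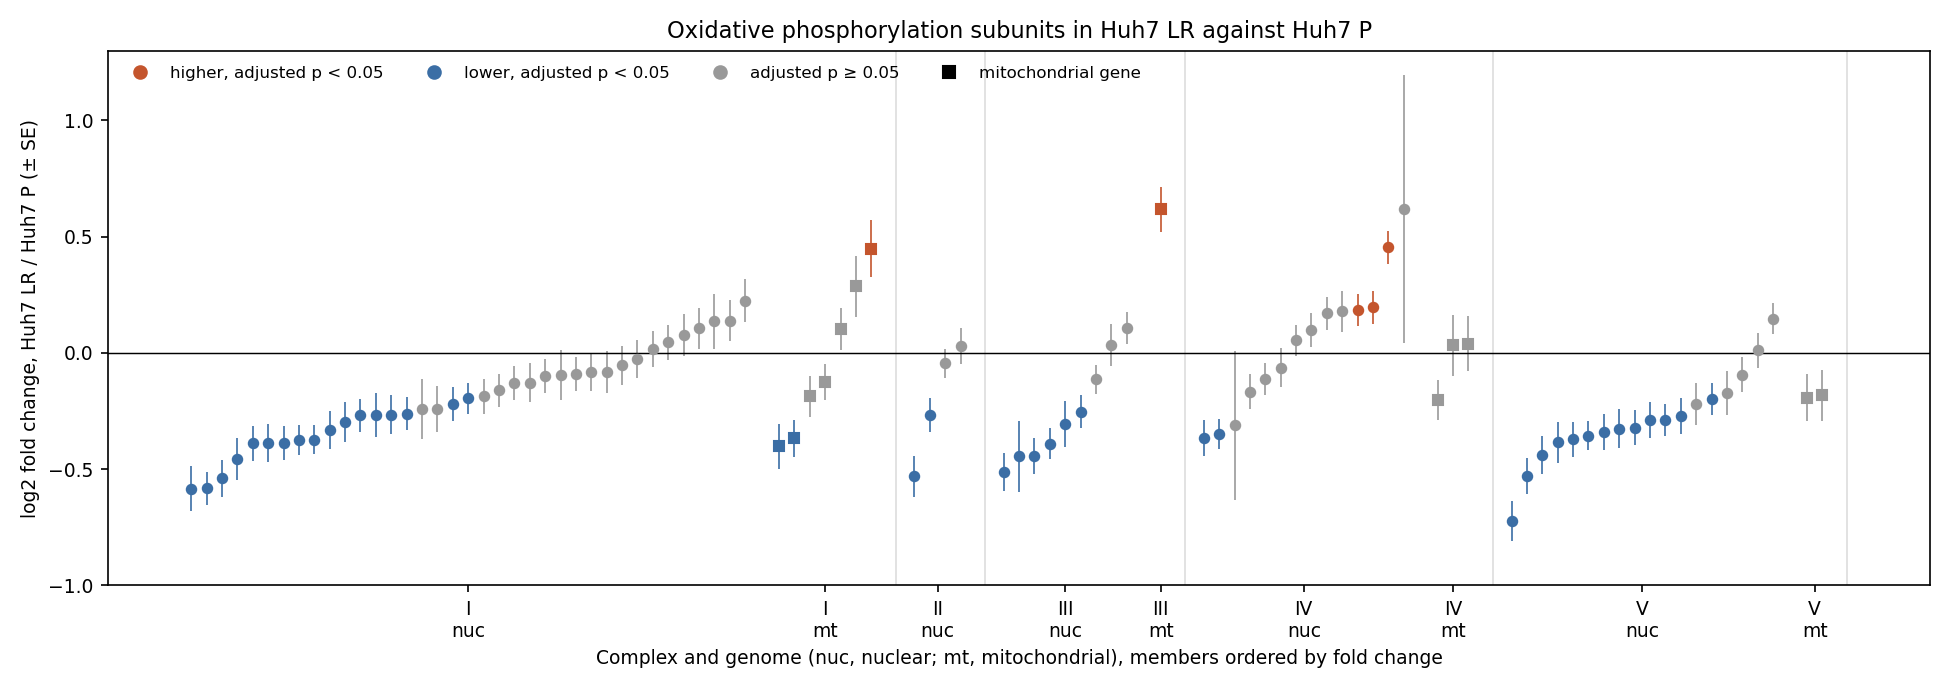
Log2 fold change of each tested member, Huh7 LR over Huh7 P (vertical axis, ± SE from edgeR, 3 libraries per group), ordered by fold change within each complex and genome (horizontal axis), where blue and red mark members called lower and higher, squares mark mitochondrial genes, and NDUFC2-KCTD14 at 3.09 is not drawn. Most called members of complexes I, II, III and V lie below 0, whereas complex IV has members on both sides.

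Summed over the nuclear members, complexes I, II, III and V were lower in Huh7 LR and complex IV was not. The 38 nuclear members of complex I summed to 3624, 3642 and 3500.0 CPM in Huh7 P and to 2910.2, 3104 and 3007 CPM in Huh7 LR, a ratio of 0.838 between the means. Complex II summed to 509, 538 and 526 CPM in Huh7 P and to 422, 477 and 443 CPM in Huh7 LR (ratio 0.854), and complex III to 1032, 1083 and 1096 CPM and to 811, 914 and 877 CPM (ratio 0.810). In these complexes no Huh7 LR library reached the lowest Huh7 P library. Complex V, the ATP synthase, had the lowest ratio of the 5, with 4325, 4615 and 4492 CPM in Huh7 P and 3296, 3719 and 3482 CPM in Huh7 LR (ratio 0.781). The groups were again apart. Complex IV summed to 1443, 1462 and 1387 CPM in Huh7 P and to 1444, 1509 and 1481 CPM in Huh7 LR (ratio 1.03), so that the groups overlapped. No test was made on these sums, and no test of a difference between complexes.

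**Figure D2:**
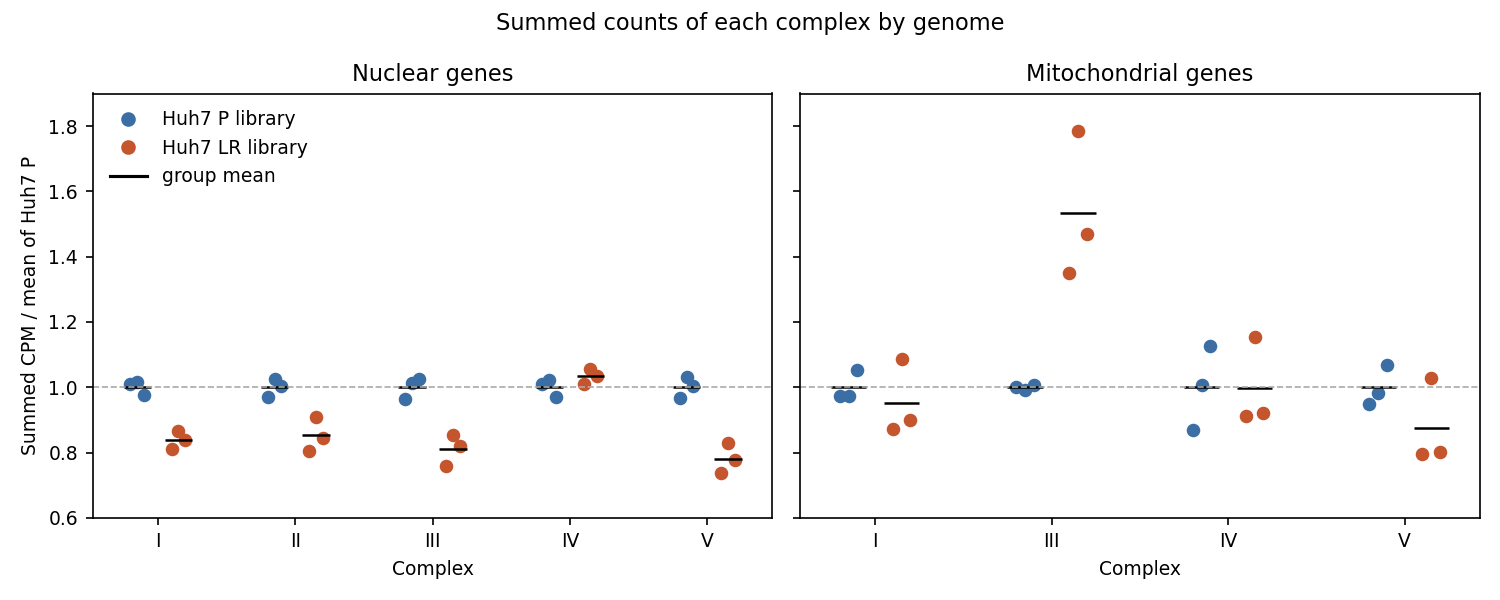
Summed CPM of each complex in every library, divided by the mean of the 3 Huh7 P libraries (vertical axis), for nuclear members (left) and mitochondrial members (right), where points are libraries and black lines group means. Nuclear sums of complexes I, II, III and V are apart between the lines, with ratios of 0.838, 0.854, 0.810 and 0.781, and MT-CYB, the only mitochondrial member of complex III, has a ratio of 1.53.

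Promoter sequence is shown because nuclear members of each complex were called lower and because such genes are known for short shared motifs near their starts. RefSeq promoters (GRCh38.p14, 250 bases before to 50 bases after each start) were found for 73 of the 90 nuclear members, 69 by symbol and 4 by NCBI gene number. For complexes I, II, III and V the 180 bases before the start are given for the called nuclear member with an entry and the lowest log2 fold change, and for complex IV for the one with the highest. The stretches are NDUFA9 at chr12:4648934-4649113 on the plus strand, SDHA at chr5:218140-218319 (plus), UQCRC2 at chr16:21953181-21953360 (plus), NDUFA4 at chr7:10940154-10940333 (minus) and ATP5MC1 at chr17:48892607-48892786 (plus). In each of the 5 the RefSeq start lies inside the gene as GENCODE release 29 bounds it, so the stretch overlaps the annotated gene. Sequences run 5′ to 3′ along the strand of the gene, and capitals mark matches to GCGCANGCG on either strand, the motif of the factor NRF1, which is known for acting on genes of the respiratory chain.
NDUFA9: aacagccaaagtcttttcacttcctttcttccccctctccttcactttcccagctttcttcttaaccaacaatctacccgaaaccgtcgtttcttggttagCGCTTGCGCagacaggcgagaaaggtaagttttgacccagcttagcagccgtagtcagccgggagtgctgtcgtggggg
SDHA: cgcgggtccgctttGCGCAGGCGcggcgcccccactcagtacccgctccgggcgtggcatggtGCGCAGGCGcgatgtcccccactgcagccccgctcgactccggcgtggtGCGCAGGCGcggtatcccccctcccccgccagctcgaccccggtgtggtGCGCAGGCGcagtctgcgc
UQCRC2: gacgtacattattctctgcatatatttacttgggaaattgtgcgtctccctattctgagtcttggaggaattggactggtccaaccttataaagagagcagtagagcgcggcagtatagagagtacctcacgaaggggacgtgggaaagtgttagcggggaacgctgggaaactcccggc
NDUFA4: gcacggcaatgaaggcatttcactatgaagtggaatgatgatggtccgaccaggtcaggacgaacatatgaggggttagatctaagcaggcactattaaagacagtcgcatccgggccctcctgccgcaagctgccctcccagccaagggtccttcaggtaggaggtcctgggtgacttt
ATP5MC1: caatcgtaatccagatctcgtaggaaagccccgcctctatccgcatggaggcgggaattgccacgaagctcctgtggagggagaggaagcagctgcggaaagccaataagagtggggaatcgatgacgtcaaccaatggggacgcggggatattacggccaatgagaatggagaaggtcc

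The SDHA stretch held 4 matches and the NDUFA9 stretch 1, and these letters were not in the other 3 stretches. Over the whole promoter window and any annotated start of a gene, GCGCANGCG was present in 24 of the 73 nuclear members (32.9%), in 2464 of 27305 genes with a promoter (9.02%) and in 1988 of 15843 protein-coding genes (12.5%). By complex, the motif was present in 10 of 33 members of complex I, 2 of 3 of complex II, 4 of 7 of complex III, 2 of 16 of complex IV and 6 of 14 of complex V. It was present in 15 of 31 members called lower, 7 of 36 not called and 1 of 3 called higher, and no difference between these groups was tested. CCGGAAG, the core bound by ETS factors such as GABP, was found in 21 members (28.8%, against 12.2% of all genes and 16.5% of protein-coding genes), 9 of 31 called lower, 11 of 36 not called and 1 of 3 called higher. AAGATGGCG, a form of the YY1 motif, was found in 9 members (12.3%, against 2.14% and 3.21%), 4 of 31 called lower and 5 of 36 not called. TCAAGGTCA, the motif of the estrogen-related receptors, was found in 1 member, called lower (1.37%, against 0.432% and 0.335%). Both strands were searched for each motif. A match describes the sequence and is not evidence that a factor binds there.

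Complex I, NADH dehydrogenase, has a peripheral arm that oxidises NADH and a membrane arm that pumps protons. Of its 38 nuclear members 17 (44.7%) were lower in Huh7 LR, beside 22.4% of all tested genes and 32.9% of those with at least 10 FPKM, 5 of the 7 core subunits and 12 of the 30 accessory subunits, with a median log2 fold change of -0.19. The count of 17 was 11 without Huh7 P replicate 2 and 12 without Huh7 LR replicate 3. Over all tested genes, 3002 of 18053 and 3262 of 17896 were lower in these fits. No nuclear member was higher in edgeR's quasi-likelihood test, DESeq2's Wald test or limma-trend, and 2 had a positive change at an unadjusted p under 0.05. With the replicate block or the length offset 1 was called higher, and 2 without Huh7 P replicate 1 or without Huh7 LR replicate 2. In the same order, 4089 and 4449 of 17531, 3583 of 17969 and 4135 of 17925 tested genes were higher. NDUFA9, an accessory subunit at the joint of the arms (chromosome 12, 4649095 to 4694317), stood at 115, 131 and 123 CPM in Huh7 P and at 72.6, 94.2 and 79.5 CPM in Huh7 LR. All 3 Huh7 LR libraries lay below the lowest Huh7 P library. The log2 fold change was -0.58 (SE 0.0964, edgeR's quasi-likelihood test, Benjamini-Hochberg adjusted p = 0.000556).

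NDUFAB1 is the mitochondrial acyl carrier protein, which serves fatty acid and lipoic acid synthesis besides its place in complex I. It gave 84.8, 89.4 and 79.2 CPM in Huh7 P and 55.7, 58.8 and 54.7 CPM in Huh7 LR. The lines did not overlap, and the log2 fold change was -0.58 (SE 0.0708, edgeR's quasi-likelihood test, Benjamini-Hochberg adjusted p = 7.09e-05). NDUFA5, an accessory subunit of the peripheral arm, gave 74.5, 77.0 and 88.3 CPM in Huh7 P and 54.6, 52.6 and 57.7 CPM in Huh7 LR. Again every Huh7 LR library was the lower (log2 fold change -0.54, SE 0.0799, edgeR's quasi-likelihood test, Benjamini-Hochberg adjusted p = 0.000272).

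NDUFV1, which carries the flavin that takes electrons from NADH, was the most abundant nuclear member of complex I per length, at 367 ± 6.73 FPKM (SD, n = 3) in Huh7 P and 283 ± 8.57 FPKM (SD, n = 3) in Huh7 LR. Its counts were 559.7, 559.8 and 539.9 CPM against 418, 436 and 428 CPM. The spread within each line was small beside the gap between them (log2 fold change -0.37, SE 0.0634, edgeR's quasi-likelihood test, Benjamini-Hochberg adjusted p = 0.000674). NDUFB5 (-0.26) and NDUFB7 (-0.22), both of the membrane arm, were among the called members close to 0. Both calls were lost when some single libraries were left out, and that of NDUFB7 also with an offset for transcript length. Members not called ranged, apart from the read-through gene, from -0.24 for NDUFB1 to 0.23 for NDUFA2, which was called higher with an offset for transcript length, without Huh7 P replicate 1 and without Huh7 LR replicate 2.

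**Figure D3:**
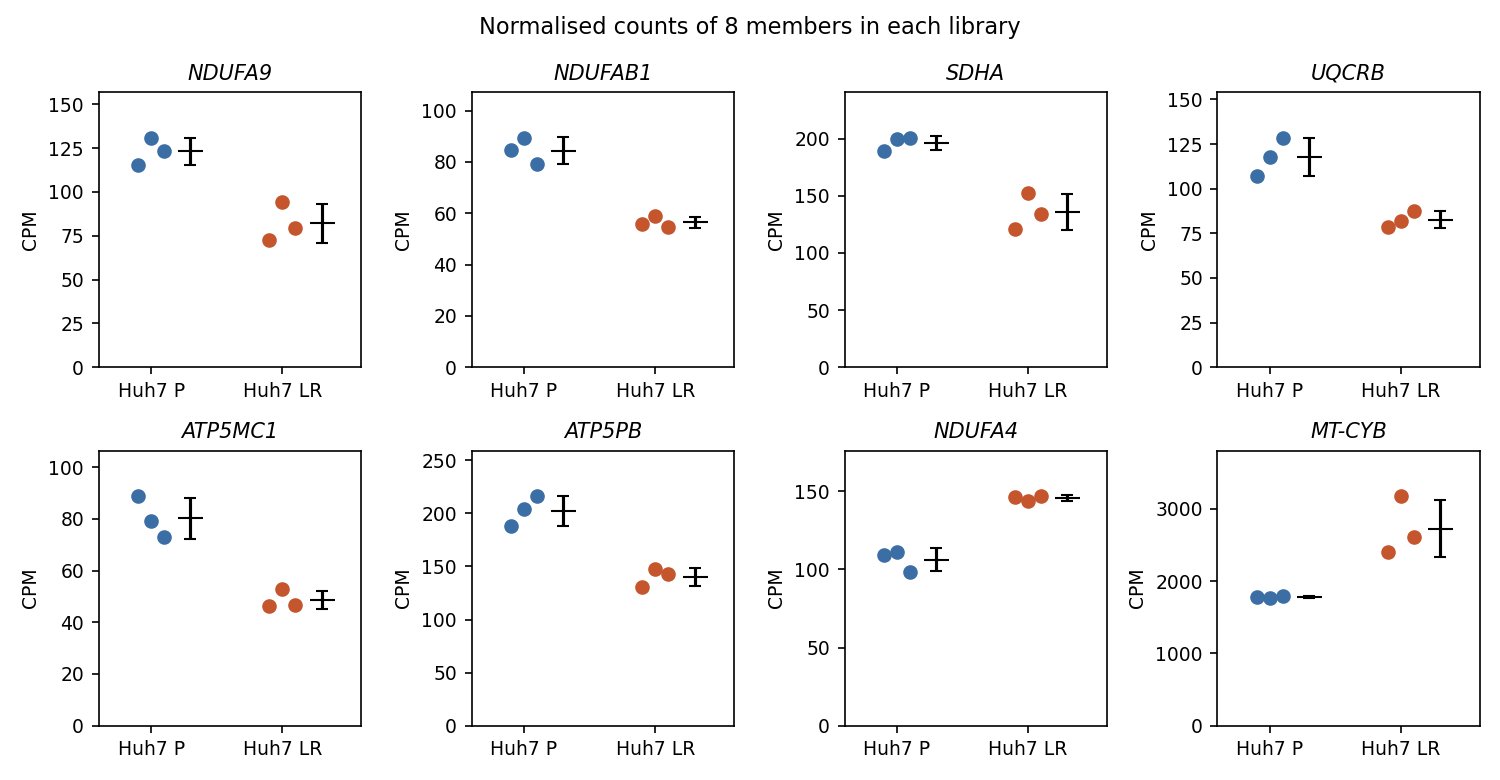
CPM of 8 members in each library (vertical axis, starting at 0), with Huh7 P in blue and Huh7 LR in red, where the black bar beside each group is the mean ± SD of 3 libraries. In each panel the lines do not overlap: 6 members are lower in Huh7 LR, and NDUFA4 and MT-CYB are higher.

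Complex II, succinate dehydrogenase, also belongs to the tricarboxylic acid cycle. Of its 4 subunits 2 were called lower, beside 22.4% of all tested genes and 32.9% of those with at least 10 FPKM. No difference between the subunits was tested. SDHA, the flavoprotein that oxidises succinate, gave 189, 199 and 201 CPM in Huh7 P and 121, 152 and 134 CPM in Huh7 LR. The highest Huh7 LR library stayed under the lowest Huh7 P library (log2 fold change -0.53, SE 0.0868, edgeR's quasi-likelihood test, Benjamini-Hochberg adjusted p = 0.000525). SDHD, a membrane anchor, gave 78.7, 88.9 and 80.3 CPM and 64.8, 70.5 and 70.7 CPM. The groups were apart, with a log2 fold change of -0.27 (SE 0.0734, edgeR's quasi-likelihood test, Benjamini-Hochberg adjusted p = 0.0119), and the call was lost without Huh7 P replicate 2.

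The other membrane anchor, SDHC, gave 145, 146 and 143 CPM in Huh7 P and 138, 141 and 141 CPM in Huh7 LR. Its libraries did not overlap, yet the change was small and not called (-0.05, SE 0.0622, edgeR's quasi-likelihood test, Benjamini-Hochberg adjusted p = 0.585). The iron-sulphur subunit SDHB gave 96.5, 104 and 102 CPM and 98.9, 113 and 97.0 CPM, and these overlapped (0.03, SE 0.0768, edgeR's quasi-likelihood test, Benjamini-Hochberg adjusted p = 0.778). Per length SDHB was the most abundant of the 4, at 80.3 FPKM in Huh7 P and 83.5 FPKM in Huh7 LR. No subunit of complex II was higher by edgeR's quasi-likelihood test, at an unadjusted p under 0.05, by DESeq2's Wald test or by limma-trend.

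Complex III, the cytochrome bc1 complex, had 6 of 9 nuclear members lower (66.7%), with a median log2 fold change of -0.31. Of all tested genes 22.4% were lower, and of those with at least 10 FPKM 32.9%. The count of 6 was 3 without Huh7 P replicate 2 and 4 without Huh7 LR replicate 1 or 3. None was higher by edgeR's quasi-likelihood test, at an unadjusted p under 0.05, by DESeq2's Wald test or by limma-trend. Over all tested genes, 3002 of 18053 were lower without Huh7 P replicate 2. Without Huh7 LR replicate 1 or 3 it was 3872 of 17901 and 3262 of 17896. UQCRB, a small subunit that takes part in binding ubiquinone, gave 107, 118 and 128 CPM in Huh7 P and 78.5, 82.0 and 87.7 CPM in Huh7 LR. All Huh7 LR libraries were lower (log2 fold change -0.51, SE 0.0816, edgeR's quasi-likelihood test, Benjamini-Hochberg adjusted p = 0.000446). UQCRC2, a core subunit of the matrix side, gave 160.1, 182 and 189 CPM and 124, 136 and 131 CPM. These groups too were apart (log2 fold change -0.44, SE 0.0786, edgeR's quasi-likelihood test, Benjamini-Hochberg adjusted p = 0.000891). The hinge subunit UQCRH was the most abundant nuclear member of complex III per length, falling from 199.8 ± 10.7 FPKM (SD, n = 3) to 155 ± 2.98 FPKM (SD, n = 3), which is -0.39 on the log2 scale (SE 0.0670, edgeR's quasi-likelihood test, Benjamini-Hochberg adjusted p = 0.000714).

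UQCRC1, the other core subunit, and UQCRFS1, the Rieske iron-sulphur protein, had smaller changes of -0.31 and -0.25. The call of UQCRC1 was lost without any of 4 single libraries (Huh7 P replicates 2 and 3, Huh7 LR replicates 1 and 3), and that of UQCRFS1 without Huh7 P replicate 2. UQCRHL is a copy of UQCRH on chromosome 1 at a far lower level (1.45 FPKM in Huh7 P and 1.08 FPKM in Huh7 LR). Over 516 aligned positions its transcript had 505 in common with that of UQCRH (97.9%), so reads of the pair may have been exchanged in counting. Its log2 fold change of -0.45 (SE 0.153, edgeR's quasi-likelihood test, Benjamini-Hochberg adjusted p = 0.0340) was not called by DESeq2 or without any of 5 single libraries (all but Huh7 P replicate 3), and is uncertain for that reason too. The members not called were UQCR11 (-0.11), UQCR10 (0.03) and UQCRQ (0.11), all small subunits. Cytochrome c1, CYC1, is a complex III subunit that the symbol rule does not take. It was named after its values were seen and fell by 0.46 on the log2 scale, from 186 to 135 CPM (edgeR's quasi-likelihood test, Benjamini-Hochberg adjusted p = 0.000521).

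Complex IV, cytochrome c oxidase, takes electrons from cytochrome c and reduces oxygen. Of its 14 tested nuclear members 3 (21.4%) were higher, beside 23.3% of all tested genes, and 2 (14.3%) were lower, beside 22.4%. The number higher was 1 without Huh7 P replicate 2 or Huh7 LR replicate 3 and 5 with limma-trend, which added COX6C and COX7C, named here after their values were seen. Over all tested genes, 3349 of 18053 were higher without Huh7 P replicate 2 and 3398 of 17896 without Huh7 LR replicate 3. With limma-trend 3430 or 3445 of 13746 were higher, after adding 0.1 or 1. The median log2 fold change of the nuclear members was 0.08. NDUFA4, a small subunit once assigned to complex I, gave 109, 111 and 98.1 CPM in Huh7 P and 147, 144 and 147 CPM in Huh7 LR. The 3 Huh7 LR libraries were close together and all above Huh7 P, with a log2 fold change of 0.45 (SE 0.0709, edgeR's quasi-likelihood test, Benjamini-Hochberg adjusted p = 0.000384). COX7A2L, which takes part in joining complexes III and IV into supercomplexes, gave 67.5, 67.6 and 74.4 CPM and 84.6, 77.4 and 78.1 CPM. Its lowest Huh7 LR library was just above its highest Huh7 P library (0.20, SE 0.0712, edgeR's quasi-likelihood test, Benjamini-Hochberg adjusted p = 0.0425).

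COX6A1, a regulatory subunit and the most abundant nuclear member of complex IV per length (309 FPKM in Huh7 P, 358 FPKM in Huh7 LR), gave 186, 198 and 194 CPM and 209, 229 and 219 CPM. The groups were apart, with a log2 fold change of 0.18 (SE 0.0676, edgeR's quasi-likelihood test, Benjamini-Hochberg adjusted p = 0.0439). The call of COX6A1 was lost with the replicate number as a block and without any of 5 single libraries, and that of COX7A2L without any of 4. The small membrane subunit COX7B gave 113, 129 and 123 CPM in Huh7 P and 90.9, 102 and 91.0 CPM in Huh7 LR. Here Huh7 LR was the lower in all libraries (-0.36, SE 0.0779, edgeR's quasi-likelihood test, Benjamini-Hochberg adjusted p = 0.00290). COX5B, a zinc-binding subunit of the matrix side, gave 94.9, 92.9 and 93.8 CPM and 73.6, 76.3 and 71.3 CPM, likewise with no overlap (-0.35, SE 0.0635, edgeR's quasi-likelihood test, Benjamini-Hochberg adjusted p = 0.00108).

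Several complex IV subunits exist as isoforms, a common form and another known from muscle, lung, testis or hypoxic cells, and these cells held almost only the common forms. COX4I1, the common form of subunit 4, gave 237, 234 and 219.8 CPM in Huh7 P and 228, 258 and 253 CPM in Huh7 LR, which overlapped (0.10, edgeR's quasi-likelihood test, Benjamini-Hochberg adjusted p = 0.298). Its partner COX4I2 had 1 count in Huh7 LR replicate 2 and 0 in the other libraries, while COX6A2, COX7B2 and COX8C had 0 counts in all 6. COX7A1, the form of heart and muscle, was not tested at 7, 14 and 8 counts for Huh7 P against 12, 6 and 4 counts for Huh7 LR. COX6B2 and NDUFA4L2 were tested at means under 1 CPM and were not called (0.62 and -0.31). The common forms COX6B1 (-0.17), COX7A2 (-0.11) and COX8A (-0.06) were not called either, with COX6B1 at 184 FPKM, COX7A2 at 164 FPKM and COX8A at 196 FPKM in Huh7 P. COX6B1 was called lower (-0.23) without Huh7 P replicate 3.

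Complex V, ATP synthase, turns a ring of c subunits with the proton flow and makes ATP in its F1 head. Of 18 nuclear members tested 13 (72.2%) were lower, with a median log2 fold change of -0.31. Of all tested genes 22.4% were lower, and of those with at least 10 FPKM 32.9%. None was higher by edgeR's quasi-likelihood test, DESeq2's Wald test or limma-trend, and 1 had a positive change at an unadjusted p under 0.05. By role, 4 of 5 subunits of the head, 3 of 4 of the stalk, 3 of 5 small membrane subunits and all 3 genes of the c ring were lower. ATP5MC1, ATP5MC2 and ATP5MC3 code for the same mature c subunit behind different import sequences. ATP5MC1 (chromosome 17, 48892765 to 48895871) gave 88.8, 79.2 and 73.0 CPM in Huh7 P and 46.3, 52.7 and 46.9 CPM in Huh7 LR. The groups were far apart relative to their spread, 80.3 ± 7.94 (SD, n = 3) against 48.6 ± 3.56 (SD, n = 3), and the log2 fold change of -0.72 (SE 0.0873) was the lowest of all tested members (edgeR's quasi-likelihood test, Benjamini-Hochberg adjusted p = 6.74e-05).

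ATP5MC2 gave 101, 97.2 and 82.7 CPM and 72.0, 77.9 and 74.2 CPM, and ATP5MC3 273, 279 and 249 CPM and 214, 217 and 225 CPM. Both had all Huh7 LR libraries lower, with log2 fold changes of -0.33 and -0.29, and the call of ATP5MC2 was lost with limma-trend on FPKM. Per length, the 3 c genes fell from 123 to 76.3 FPKM (ATP5MC1), from 97.2 to 78.6 FPKM (ATP5MC2) and from 54.0 to 45.5 FPKM (ATP5MC3). ATP5PB, the stalk subunit that holds the head still, gave 188, 204 and 216 CPM in Huh7 P and 131, 147 and 142 CPM in Huh7 LR. No library of the lines overlapped (log2 fold change -0.53, SE 0.0777, edgeR's quasi-likelihood test, Benjamini-Hochberg adjusted p = 0.000252).

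The catalytic subunit ATP5F1B was the most abundant nuclear member of complex V per length, at 789.9 ± 35.7 FPKM (SD, n = 3) in Huh7 P and 591 ± 50.1 FPKM (SD, n = 3) in Huh7 LR. Its counts were 1477, 1629.7 and 1604 CPM in Huh7 P and 1057, 1269.9 and 1143 CPM in Huh7 LR. Every Huh7 LR library was lower (log2 fold change -0.44, SE 0.0819, edgeR's quasi-likelihood test, Benjamini-Hochberg adjusted p = 0.00121). The called members nearest 0 were ATP5MC3, the stalk subunit ATP5PF (-0.27) and ATP5F1E (-0.20), the smallest subunit of the head. ATP5PF was no longer called without some single libraries, and ATP5F1E neither without most single libraries nor with no filter, limma-trend or an offset for transcript length. ATP5IF1, the protein that holds the enzyme back when the proton gradient fails, gave 71.3, 66.3 and 67.8 CPM and 78.0, 73.0 and 76.6 CPM. Its Huh7 LR libraries all lay above Huh7 P, but it was not called (0.15, SE 0.0657, edgeR's quasi-likelihood test, Benjamini-Hochberg adjusted p = 0.0888) except without Huh7 LR replicate 2. ATP5MGL, a copy of ATP5MG, and the read-through gene ATP5MF-PTCD1 had at most 3 and 9 counts in a library and were not tested.

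The 13 mitochondrial genes are read from both strands of the circular genome as long precursors that are then cut into single RNAs. Their log2 fold changes ran, in order along the genome, -0.37 for MT-ND1, -0.40 for MT-ND2, 0.03 for MT-CO1, 0.04 for MT-CO2, -0.18 for MT-ATP8, -0.19 for MT-ATP6, -0.20 for MT-CO3, 0.10 for MT-ND3, -0.12 for MT-ND4L, -0.19 for MT-ND4, 0.29 for MT-ND5, 0.45 for MT-ND6 and 0.62 for MT-CYB. The called changes thus lay at the ends of this order, lower at MT-ND1 and MT-ND2 and higher at MT-ND6, the only member on the opposite strand, and MT-CYB. No relation between position and change was tested.

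MT-CYB, cytochrome b, is the subunit of complex III that holds both quinone sites. It gave 1778, 1765 and 1789 CPM in Huh7 P and 2398, 3172 and 2609.8 CPM in Huh7 LR. The Huh7 P libraries were nearly alike and all Huh7 LR libraries were above them, at 1777 ± 12.2 (SD, n = 3) and 2726 ± 400.1 (SD, n = 3), while 6 of the 9 nuclear members of the same complex fell. The log2 fold change was 0.62 (SE 0.0962, edgeR's quasi-likelihood test, Benjamini-Hochberg adjusted p = 0.000382).

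MT-ND6, a subunit of the membrane arm of complex I, gave 790.1, 1003 and 1078 CPM in Huh7 P and 1159, 1500.3 and 1259 CPM in Huh7 LR. The groups were apart by a narrow gap (0.45, SE 0.122, edgeR's quasi-likelihood test, Benjamini-Hochberg adjusted p = 0.0112). The strand setting of the libraries is not stated. RNA of the other strand at MT-ND6 may therefore be in its counts, and this was not tested. MT-ND2 gave 2845, 2607 and 2796 CPM and 1896, 2422 and 1929 CPM, and MT-ND1 2364, 2315 and 2172 CPM and 1679, 1955 and 1677 CPM. In both genes Huh7 LR was below Huh7 P in all libraries, and Huh7 LR replicate 2 was the nearest to Huh7 P (MT-ND2 adjusted p = 0.00577 and MT-ND1 adjusted p = 0.00324, edgeR's quasi-likelihood test, Benjamini-Hochberg adjusted). MT-ND5, between MT-ND4 and MT-ND6, gave 3487, 4259 and 4575 CPM and 4183, 5979.8 and 4869.7 CPM, which overlapped (0.29, SE 0.131, edgeR's quasi-likelihood test, Benjamini-Hochberg adjusted p = 0.0954). MT-ND5 was called higher with the replicate number as a block and without Huh7 LR replicate 1.

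Huh7 LR replicate 2 had the highest level of the 3 Huh7 LR libraries in 12 of the 13 mitochondrial genes, the exception being MT-ND3. Without that library 6 mitochondrial members were lower in place of 2, with MT-CO3, MT-ATP6, MT-ATP8 and MT-ND4 added. In that fit 3984 of all 17925 tested genes were lower, and with all libraries 3923 of 17531. MT-CO3 was also called lower by DESeq2's Wald test and with the replicate number as a block. With all libraries these 4 and the other genes of the middle stretch overlapped between the lines. MT-CO1, the catalytic subunit of complex IV, for example gave 12457, 15230.2 and 18034 CPM in Huh7 P and 14610.0, 17904 and 14230.1 CPM in Huh7 LR. Per length MT-CO1 was the most abundant of all members, at 9065 ± 1575 FPKM (SD, n = 3) and 9451 ± 1163 FPKM (SD, n = 3). The libraries were selected for poly(A), and differences in the tails of mitochondrial RNAs were not tested.

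**Figure D4:**
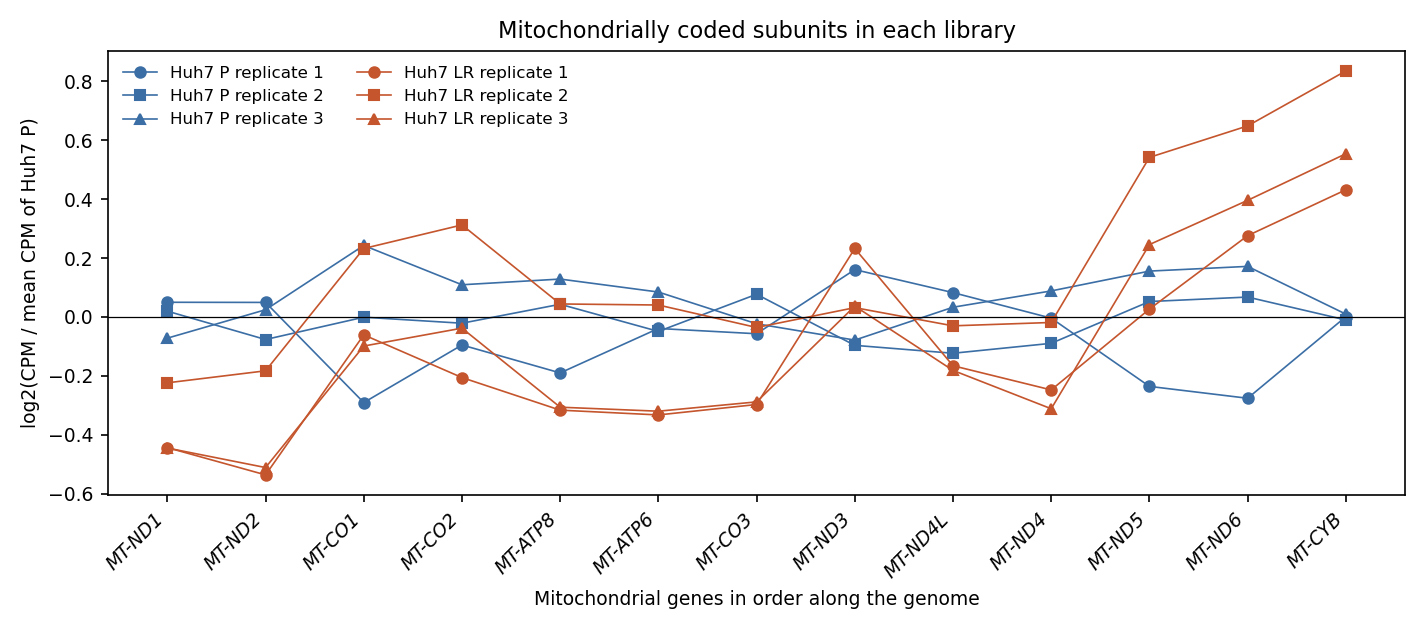
Log2 ratio of the CPM of each mitochondrial member to the mean of the 3 Huh7 P libraries (vertical axis) for each of the 6 libraries (Huh7 P blue, Huh7 LR red), with genes in their order along the genome (horizontal axis, not to scale). Huh7 LR lies below Huh7 P at MT-ND1 and MT-ND2, overlaps it through the middle genes and lies above it at MT-ND6 and MT-CYB, and Huh7 LR replicate 2 is the upper red line at all genes but MT-ND3.

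MT-ATP8 and MT-ATP6 share 46 bases, at chrM:8527-8572 on the plus strand (GRCh38, from the GENCODE release 29 transcripts), which are coding in both. The stretch is shown because reads within it cannot be given to either gene alone. Capitals mark the start codon of MT-ATP6 at the left and the stop codon of MT-ATP8 at the right.
MT-ATP8 and MT-ATP6: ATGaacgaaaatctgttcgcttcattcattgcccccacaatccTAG

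The pair gave similar changes, -0.18 (MT-ATP8, SE 0.111) and -0.19 (MT-ATP6, SE 0.101). Other members share sequence as well, and how the counting treated such reads is not given in the sources used here. Pseudogenes that carry the symbol of the member exist for 59 members, and 24 members overlap exons of some other gene of the table on their own strand and 26 on the opposite strand, covering at least 10% of the exon bases of 16 and 12 of them. Summing each nuclear member with the genes that share at least 100 bases on its strand, an alternative chosen after seeing the data, kept all 42 lower and 5 higher calls. The 59 include all 13 mitochondrial members, whose named copies are nuclear, and reads from such copies were not separated.

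Genes that serve the complexes without being subunits were counted in 11 lists. Assembly factors of complex I were lower in 8 and higher in 1 of 16, with a median log2 fold change of -0.29. The range of those called ran from NDUFAF4 (-0.83) and FOXRED1 (-0.46) to TMEM126B (-0.23) and COA1 (0.51). For complex III, 3 of 6 were lower (median -0.19): LYRM7 (-0.74) and BCS1L (-0.44), which together place the Rieske protein, and UQCC1 (-0.20). For complex IV, 5 (19.2%) were lower and 3 (11.5%) higher of 26 entries from 25 symbols, SCO2 having 2 identifiers (median -0.09), beside 22.4% and 23.3% of all tested genes. Those called include COA6 (-0.78), a copper-site factor, COA7 (-0.76), COX19 (0.67) and PET117 (0.55). The 4 factors of complex II had adjusted p values from 0.151 to 0.908 (median 0.05) and the 4 of complex V from 0.0555 to 0.626 (median -0.15) (edgeR's quasi-likelihood test, Benjamini-Hochberg adjusted). The electron carriers cytochrome c, ubiquinone and their enzymes were lower in 8 and higher in 1 of 16 (median -0.22), from COQ3 (-0.95) and PDSS1 (-0.52), both of ubiquinone synthesis, to ETFDH (-0.26) and COQ8B (0.24).

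The machinery that makes the mitochondrially coded subunits was counted in 2 lists, with no test between lists. Of 31 genes of mitochondrial transcription, replication and RNA handling 22 were lower and 1 higher, with a median of -0.50, against 22.4% lower and a median of 0.00 over all genes. TFB2M, the factor that opens mitochondrial promoters, gave 34.4, 35.9 and 37.3 CPM in Huh7 P and 17.4, 19.2 and 18.9 CPM in Huh7 LR. The groups were far apart (log2 fold change -0.95, SE 0.0789, edgeR's quasi-likelihood test, Benjamini-Hochberg adjusted p = 5.29e-06). TRMT10C, part of the enzyme that cuts the precursors at transfer RNAs, had -0.82, and MGME1 (-0.25) and TBRG4 (0.27) were the called genes with the smallest fall and the sole rise. TFAM, which packs and activates the mitochondrial genome, and the polymerase POLRMT were named for their roles after their values were seen: TFAM fell from 92.3 to 58.2 CPM (-0.67), and POLRMT was at 153 and 142 CPM and not called (-0.10). Of 78 proteins of the mitochondrial ribosome 47 were lower and 1 higher (median -0.33), from MRPL1 (-0.86) and MRPS35 (-0.79) to MRPL4 (-0.17) and MRPS24 (0.36).

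**Figure D5:**
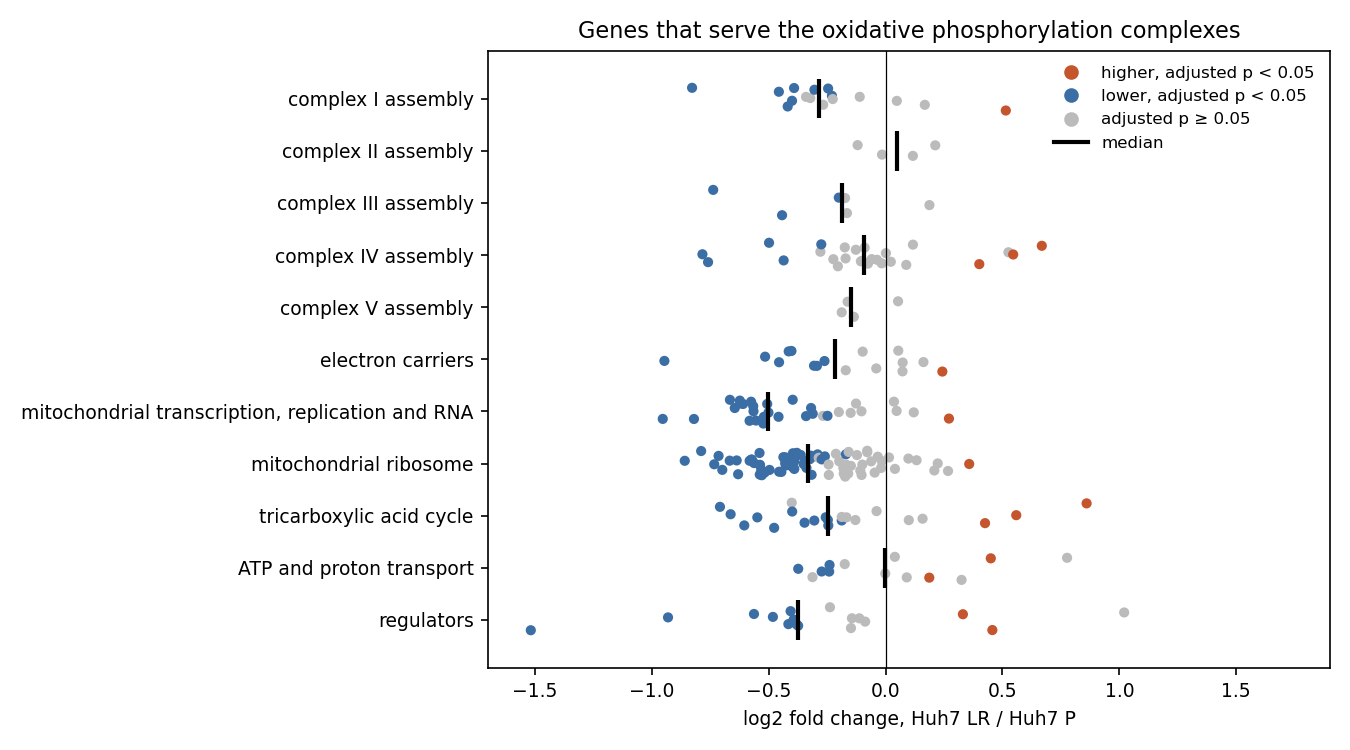
Log2 fold change (horizontal axis) of each tested gene in 11 lists of genes that serve the complexes (vertical axis, with positions within a list spread at random), with called genes in blue (lower) and red (higher) and the median of each list as a black bar. The median is lowest for mitochondrial transcription, replication and RNA (-0.50) and lies at 0.00 for ATP and proton transport.

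Among enzymes of the tricarboxylic acid cycle and pyruvate dehydrogenase 12 were lower and 3 higher of 22 (median -0.25). PDHX (-0.71) and DLAT (-0.66), of the core of pyruvate dehydrogenase, lay at the lower end, and IDH2 (0.56) and PDK3 (0.86), a kinase that holds that enzyme back, at the upper end. The list of ATP and proton transport holds carriers and channels, NNT and the creatine kinases CKMT1A, CKMT1B and CKMT2. Of its 13 tested genes 4 (30.8%) were lower and 2 (15.4%) higher, beside 22.4% and 23.3% of all tested genes, with a median of 0.00. VDAC1 (-0.37) and VDAC3 (-0.27) of the outer membrane fell, and SLC25A5 (0.19), an ADP/ATP exchanger, and CKMT1A (0.45) rose. CKMT1B (0.32) was not called. Of 17 tested regulators of mitochondrial genes 9 were lower and 2 higher (median -0.37). MYC, which drives growth and mitochondrial genes, gave 93.0, 83.5 and 81.5 CPM in Huh7 P and 34.0, 30.2 and 25.8 CPM in Huh7 LR. It was the only gene of these 11 lists past the study's threshold (log2 fold change -1.52, SE 0.101, edgeR's quasi-likelihood test, Benjamini-Hochberg adjusted p = 1.35e-06).

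ESRRB, an estrogen-related receptor at low level, fell by 0.93 on the log2 scale, and EPAS1 (0.33), a hypoxia factor, and PRKAA2 (0.46), an energy sensor, rose. NRF1, whose motif was searched above, and GABPA, the ETS subunit of GABP, fell from 23.9 to 18.5 CPM (-0.37) and from 46.2 to 31.3 CPM (-0.56). YY1 was at 140.2 and 129.7 CPM and not called (-0.11), and ESRRA at 40.2 and 37.8 CPM and not called (-0.09). PPARGC1A, the coactivator best known in this pathway, was at 0.157 and 0.319 CPM, and was not called, and ESRRG was at 0 in all libraries. NRF1, GABPA, YY1, ESRRA, PPARGC1A and ESRRG were named for their known roles after their values were seen. Calls near the threshold in these lists, such as those of ETFDH, TMEM126B, UQCC1, MRPL4 and SLC25A5, were lost under some other settings.

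Markers of cell types were counted to describe the cultures. Of 8 hepatocyte markers 4 were higher in Huh7 LR (TF, APOA1, TTR and ALB), beside 23.3% of all tested genes, and the sum of the 8 was 43498, 48545 and 52591 CPM in Huh7 P and 55897, 54989 and 58034 CPM in Huh7 LR. AFP, the fetal counterpart of albumin and the most abundant, was at 22997 and 19619.8 CPM and was not called. Fibroblast markers summed to 2.19, 2.16 and 2.28 CPM in Huh7 P and 8.02, 5.02 and 5.56 CPM in Huh7 LR. Of these, 2 of 6 could be tested and both were higher, COL1A1 was the most abundant (1.28 and 4.59 CPM), and DCN was at 0. Leukocyte markers summed to 67.6, 67.7 and 62.4 CPM and 13.1, 14.0 and 10.1 CPM. Most of that was LYZ (63.7 and 9.19 CPM), called lower and the only call among the 3 tested of 6, while TYROBP and HLA-DRA were at 0. Endothelial markers summed to 38.8, 45.7 and 47.5 CPM and 70.7, 71.2 and 65.0 CPM. Of these, 2 of 5 were tested and both were higher, PECAM1 carried most of the sum (44.0 and 68.7 CPM), and CDH5, KDR and TEK were at 0. The part of these genes in the changes of the members was not tested.

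Transcript length moved with the fold change over all genes: the median was 0.15 for the 768 tested genes of up to 1000 exon bases, of which 5.99% were lower, and -0.02 for those above 8000 bases, of which 28.1% were lower. The share called higher was also greater in longer genes, 17.6% between 1000 and 2000 bases and 25.1% above 8000 bases. The median exon length of the nuclear members tested was 2475 bases, and by complex 2131 (I), 5610.5 (II), 2180.0 (III), 2399.5 (IV) and 2923 (V) bases. Nuclear members of at most 2000 exon bases numbered 19 of 38 tested in complex I, 0 of 4 in complex II and 3 of 9 in complex III. In complex IV there were 7 of 14, and in complex V 2 of 18. The part of length in the values of each complex was not tested. With an offset for length in each library the medians were -0.15 for complex I, -0.12 for complex II, -0.28 for complex III, 0.10 for complex IV and -0.28 for complex V over the nuclear members, and -0.06 over the mitochondrial members (-0.12 without it). Of the 42 members called lower, 28 were called in each of 16 alternatives. Besides MT-ND1 and MT-ND2, these include NDUFA9, NDUFAB1, NDUFA5, NDUFV1, SDHA, UQCRB, UQCRC2, UQCRH, COX7B, COX5B, ATP5MC1, ATP5PB and ATP5F1B. Of the 5 called higher, MT-CYB, MT-ND6 and NDUFA4 were called in all 16.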

How the data were processed

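The 6 samples, 3 per line, were sequenced as poly(A) libraries whose strand setting is not stated. The authors deposited 1 table with a count of reads and an FPKM value per gene and library. Counts are whole numbers without normalization, and the deposited FPKM values are scaled for length and library size. The submitters' processing notes name TopHat2, Cufflinks and DESeq without versions or roles and the build mm10, a mouse genome; the identifiers are human, and all 103 members have the same identifier and symbol in GENCODE release 29 (GRCh38), whose coordinates are used. The extraction text of the labels describes an insect. The table also holds 34 lines that name no gene, which are blank or continue annotation text broken over a line end, and these were left out. Unannotated loci held 2.86% to 3.35% of all reads counted.

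Counts were fitted in R 4.3.3 with edgeR 4.0.16 (filterByExpr with minimum count 10 and minimum total 15, TMM factors 0.977 to 1.03, quasi-likelihood test without robust estimation, group alone as design). Adjusted p values are Benjamini-Hochberg values over all genes and loci tested. Each standard error is the fold change on the log2 scale divided by the root of F, and the biological coefficient of variation was 12.7%. Replicates of a line differed by more than sampling noise (chi-square per degree of freedom 13.9 to 59.8). P values set the difference between the 2 lines against the spread among samples within a line. They do not cover variation between separately derived resistant lines. Counts were also simulated over 17235 genes and loci, where the genes changed all had a mean count of at least 100. There edgeR called 94 of 100 genes changed by a fold of 2 and 95 of 100 changed by a fold of 0.5. Of its 206 calls 17 were unchanged genes. No called member changed by a fold of 2, and the data hold 4093 higher and 3923 lower calls. The simulated shares therefore do not give the power or error at the smaller changes of the members.

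As alternatives the fit was repeated with size factors of DESeq2 1.42.0, with its Wald test, without a filter, with at least 10 counts in every library, the replicate number as a block, limma-trend (3.58.1, log2 of FPKM after adding 0.1 or 1, genes reaching 0.5 FPKM in 3 libraries), library sizes without mitochondrial genes, an offset for transcript length and each library left out in turn. Members and lists were chosen with earlier results of these data known, and no list was tested. Genes named are the mitochondrial members, the SDH genes, members past the study's threshold, up to 3 of the largest and up to 3 of the smallest called changes and the most abundant nuclear member per complex, isoform pairs, copies and read-through genes, and the 2 largest and 2 smallest called changes of each list. Other genes were chosen after their values were seen. Alignments used Biopython 1.88, and figures matplotlib 3.10.9 in Python 3.11.15. Promoters are from RefSeq (GRCh38.p14).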

Additional observations from a re-analysis of the deposited data

How the results depend on the processing

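Over the genes named by the rule given above and the alternatives, 1203 values were the same, 121 lost a call, 12 gained one, and no called gene changed direction. Genes named outside that rule are not in these counts, and of these NDUFA2, ATP5IF1, COX6C and COX7C gained calls in some alternatives. The number of members higher was 3 to 8 with single libraries left out (5 with all), with 3 without Huh7 P replicate 2 or Huh7 LR replicate 3 and 8 without Huh7 LR replicate 2; members lower ranged from 30 to 47, nuclear-coded members higher from 1 to 6 (3 with all), nuclear-coded members lower from 28 to 41, mitochondrially coded members higher from 2 to 3 and lower from 2 to 6, the 6 without Huh7 LR replicate 2. Counts over all tested genes moved as well. Without Huh7 P replicate 2, 3349 of 18053 genes were higher and 3002 lower. Without Huh7 LR replicate 3, 3398 of 17896 were higher and 3262 lower, and without Huh7 LR replicate 2, 4135 of 17925 and 3984. With single libraries left out, the median log2 fold change of nuclear-coded members ran from -0.25 to -0.18 and that of mitochondrially coded members from -0.17 to -0.10. Nuclear-coded members higher were 5 with limma-trend on log2(FPKM + 0.1) and 5 on log2(FPKM + 1). With the offset for transcript length the median log2 fold change was -0.17 for nuclear-coded and -0.06 for mitochondrially coded members (-0.12 without the offset); the cause was not tested. Lower calls kept their sign in all 16 alternatives, and 40 to 42 of them kept the call with all libraries and 30 or more with a library left out. Members past the study's threshold numbered 0 in each alternative.

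With the replicate block 6 members were higher and 44 lower, 41 of the latter nuclear, and only COX6A1 lost its call. Of all 17531 tested genes 4089 were higher and 4033 lower with the block. Samples with the same number correlated at 0.0762, 0.0933 and 0.0440 over 13877 genes, all under 0.1. The sources name no pairing of these samples beyond the number. Each sample nevertheless correlated best with its own number in the other line, a hint from the data and not from the design. Whether samples of the same number shared a batch was not tested.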
